A study of Mus musculus with 2 samples.

Results

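The 8 genes described here encode chains of the pre-B cell receptor, a VpreB-like protein (Vpreb3) and the first proteins the receptor signals through. They are Igll1, Vpreb1, Vpreb2, Vpreb3, Cd79a, Cd79b, Blnk and Syk, and do not include the heavy chain. They were chosen by name and not by a rule on measured values, but with earlier results of these data known. All 8 were present among the 20657 protein-coding genes of the expression table, in 9 of its 26968 protein-coding transcript rows. Syk had 2 transcripts and every other gene had 1.

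Whole-transcriptome RNA-seq was measured in 1 library of Ebf1 -/- pre-pro-B cells and 1 library of Rag2 -/- pro-B cells, both of the C57BL/6 mouse strain and both grown on OP-9 stromal cells with IL-7 at 5 ng/mL. The pre-pro-B cells came from fetal liver of females and also received SCF and Flt3L at 10 ng/mL each, whereas the pro-B cells came from bone marrow of adult males and received IL-7 alone. Each library was sequenced to about 90 M strand-specific single-end reads of 97 bp, from RNA depleted of ribosomal RNA. Levels are FPKM, fragment counts scaled by transcript length and by the library's mapped fragments, and the only error available is the 95% confidence interval that Cuffdiff gave each value. With 1 library per cell type no difference has a replicate check and no p-value is given, and cell type, genotype, sex, age, tissue of origin and cytokines cannot be told apart. "Higher" and "lower" below mean a difference of 2-fold or more on the scale of log2(FPKM + 1).

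Pre-pro-B cells precede B lineage commitment, which needs the transcription factor EBF1, and pro-B cells are committed and rearrange the immunoglobulin heavy chain gene. Where rearrangement succeeds, the heavy chain pairs with a surrogate light chain made of lambda5 (the product of Igll1) and VpreB (Vpreb1 or Vpreb2), and the complex sits in the membrane with the signalling pair Ig-alpha (Cd79a) and Ig-beta (Cd79b). Tyrosines in the tails of that pair recruit the kinase SYK, which phosphorylates the adaptor BLNK. Rag2 null cells cannot rearrange the heavy chain gene, so the values here are transcript levels of the parts and not of an assembled receptor.

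The signalling chains carry the immunoreceptor tyrosine-based activation motif (ITAM), a pair of tyrosines each followed at the third residue by leucine or isoleucine, with 6 to 8 residues between the parts. A search of the coding sequences of the mouse GENCODE transcripts on mm9 found 1 such motif in Cd79a and 1 in Cd79b. Fcer1g and Tyrobp, which encode the ITAM chains of Fc receptors and of activating myeloid and NK receptors, also held 1 each. The 45-base coding stretches are shown because these 4 chains exchanged places between the libraries, as described further on. Capitals mark the codons of the paired tyrosines.
Cd79a: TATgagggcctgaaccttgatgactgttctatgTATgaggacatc
Cd79b: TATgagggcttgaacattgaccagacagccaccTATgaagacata
Fcer1g: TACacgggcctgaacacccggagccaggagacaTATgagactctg
Tyrobp: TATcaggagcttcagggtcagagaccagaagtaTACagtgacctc
All 4 had 7 residues between the parts of the motif.

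Promoters were read from RefSeq sequence on GRCm38.p6 as the 250 bases before the annotated start. A window was given for 7 of the 8 members, with 2 windows for Syk. The core of the Ebf site (CCCNNGGG), the E-box (CAGNTG), the Ikaros core (TGGGAA), the Runx core (TGTGGT), the TATA box (TATAAA) and the octamer bound by Oct factors (ATTTGCAT) were searched on both strands. The octamer was added after the sequences had been seen. The promoter of Igll1 held an Ebf core 231 bases before the start, the only exact match among the member promoters. Of all 32851 promoters, 11.8% held these letters. Near matches, such as ctcaaggg in the Cd79a window, were not searched for in any promoter, so Ebf sites with other letters would be missed. The Igll1 promoter also held 3 E-boxes and a Runx core. The promoters of Vpreb3 and Blnk each held the octamer, 45 and 130 bases before the start, which 1.60% of all promoters held. Cd79a, shown beside them, held an E-box 154 bases before the start. Capitals mark every match, and all 4 genes rose in pro-B cells.
Igll1, chr16:16863986-16864235, minus strand: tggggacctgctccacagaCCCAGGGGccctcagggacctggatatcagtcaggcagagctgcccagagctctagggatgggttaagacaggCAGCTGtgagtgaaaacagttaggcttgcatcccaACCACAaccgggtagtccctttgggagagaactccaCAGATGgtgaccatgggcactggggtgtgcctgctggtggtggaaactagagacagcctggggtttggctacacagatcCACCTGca
Vpreb3, chr10:75948050-75948299, plus strand: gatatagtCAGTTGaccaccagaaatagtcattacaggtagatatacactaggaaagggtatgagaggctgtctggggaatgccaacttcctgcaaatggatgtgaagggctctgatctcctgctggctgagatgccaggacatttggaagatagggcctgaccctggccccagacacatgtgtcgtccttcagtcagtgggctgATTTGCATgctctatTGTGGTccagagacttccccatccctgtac
Cd79a, chr7:24897247-24897496, plus strand: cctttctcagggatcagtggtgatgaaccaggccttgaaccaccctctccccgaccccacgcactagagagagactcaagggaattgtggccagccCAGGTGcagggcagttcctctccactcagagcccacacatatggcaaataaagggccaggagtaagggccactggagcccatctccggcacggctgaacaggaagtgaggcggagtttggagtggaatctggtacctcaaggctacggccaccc
Blnk, chr19:40994222-40994471, minus strand: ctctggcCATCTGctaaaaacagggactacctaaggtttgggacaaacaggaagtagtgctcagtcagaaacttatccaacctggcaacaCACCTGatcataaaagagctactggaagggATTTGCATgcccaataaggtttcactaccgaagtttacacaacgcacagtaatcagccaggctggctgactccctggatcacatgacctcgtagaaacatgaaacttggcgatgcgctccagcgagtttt
An E-box lay in the promoter of each of the 7 member genes that had a window, but 44.8% of all promoters held it too. The Runx core was found in 2 of the 7 genes, against 14.0% of all promoters. The Ikaros core was found in 1 gene, Vpreb2, where it overlapped an E-box, against 21.6%. The measured Vpreb2 transcript was only as long as its coding sequence. The bases just before its start, with this match, may therefore be transcribed and not promoter. The TATA box was found in none, against 12.4%.

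Vpreb1 and Vpreb2 are near-identical copies on chromosome 16, and their sequences bear on how far their levels can be told apart. The 106 bases just before the Vpreb1 start matched the stretch from 250 to 145 bases before the Vpreb2 start, with 2 differing bases. Capitals mark the E-box that both stretches hold.
Vpreb1, chr16:16869256-16869361, minus strand: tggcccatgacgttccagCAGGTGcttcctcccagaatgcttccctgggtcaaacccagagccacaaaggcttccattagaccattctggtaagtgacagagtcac
Vpreb2, chr16:17980315-17980420, plus strand: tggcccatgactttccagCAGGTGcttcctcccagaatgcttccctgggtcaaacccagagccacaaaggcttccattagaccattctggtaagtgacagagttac
Their GENCODE transcripts were both 766 bases long and differed at 20 bases, 9 of them among the 429 coding bases, and the encoded proteins differed at 4 of 142 residues. Of the 670 read-length windows (97 bases) in either transcript, 100 windows (14.9%) were identical in the other, and reads from those windows could not be assigned by sequence. No read-length window of the GENCODE transcripts of the other 6 genes occurred in another protein-coding gene. Vpreb3 is a more distant relative, with 37.7% identical residues to Vpreb1 over 122 aligned positions, and Igll1 had 27.7% over 130 positions.

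Of the 8 genes, 7 were higher in pro-B cells and none was lower, while Syk stayed within 2-fold. Among all genes, 6.36% were higher and 9.9% were lower by the same rule. Among the 10669 genes that reached 1 FPKM in either library, which include all 8 members, these shares were 12.3% and 19.2%. The median change of the 8 genes was 6.42 on the log2 scale, beside a median of 0 over all genes and -0.14 over the genes that reached 1 FPKM. Ranked among all genes by the rise on the log2(FPKM + 1) scale, Igll1 came 1st, Vpreb3 3rd, Vpreb1 4th, Cd79a 12th, Cd79b 25th, Blnk 33rd and Vpreb2 103rd. The Cuffdiff intervals of the libraries did not overlap for 6 of the 8 genes, each with the pro-B interval above. Intervals lay apart in that direction for 1.28% of the genes that reached 1 FPKM, and in the other direction for 3.02%. Limits were summed over the transcripts of a gene, which makes overlap more likely for genes with several. Every member but Syk has 1 transcript, so these shares are not a fully like comparison.

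**Figure D1:**
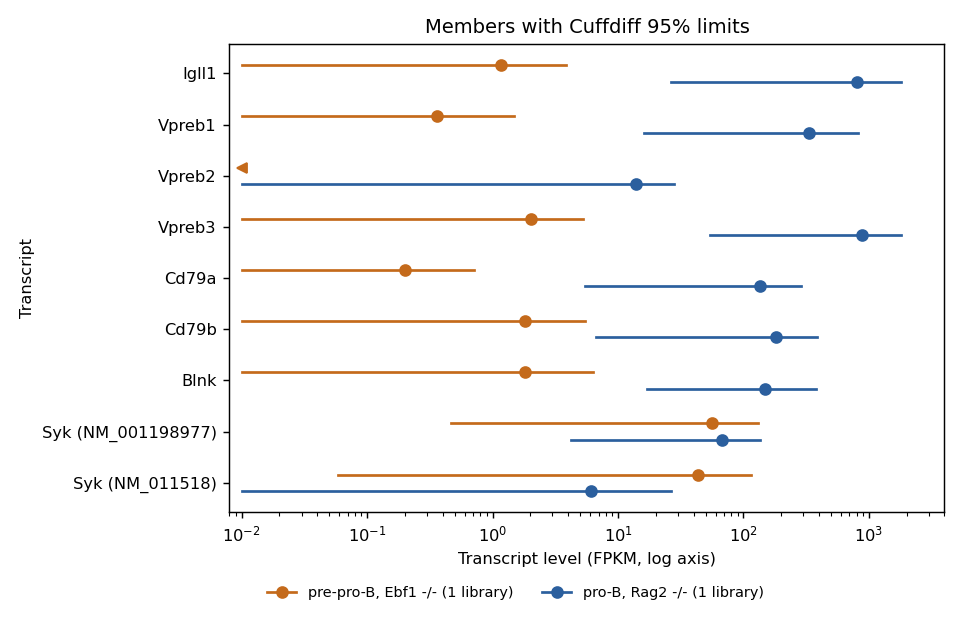
FPKM of the 9 member transcripts (log axis) in the pre-pro-B library (orange) and the pro-B library (blue). Points are FPKM and lines are Cuffdiff's 95% limits, drawn from the left edge where the lower limit is 0, and the triangle marks Vpreb2, listed at 0. The libraries' lines lie apart for Igll1, Vpreb1, Vpreb3, Cd79a, Cd79b and Blnk, and overlap for Vpreb2 and both Syk transcripts.

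Igll1 encodes lambda5, the constant-like part of the surrogate light chain, and lies at chr16:16860764-16864078 (mm9, minus strand). Its FPKM was 1.17 (Cuffdiff limits 0 to 3.81) in the pre-pro-B library against 798 (26.6 to 1810) in the pro-B library. The pro-B level was 681-fold higher, a log2 change of 8.52 with a pseudocount of 1, and the limits allowed 2.52 to 10.82. These levels correspond to about 91.8 and 62504 fragments at the stated depth. In pro-B cells Igll1 ranked 25th of all 20657 genes, and in pre-pro-B cells 10023rd.

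Vpreb1 encodes the variable-like part of the surrogate light chain and lies at chr16:16868494-16869348 (minus strand), 4.42 kb from Igll1. Its FPKM was 0.359 (0 to 1.49) in the pre-pro-B library against 335 (16.3 to 822) in the pro-B library, a log2 change of 7.95 with limits of 2.79 and 9.68. The pre-pro-B value rested on about 24.8 fragments. Vpreb2, its near-copy 1111 kb away at chr16:17980658-17981173 (plus strand), was listed at 0 in the pre-pro-B library, where 3 fragments would have given 0.0777, against 13.8 (0 to 27.8) in the pro-B library. No fold can be given for Vpreb2, and its log2 change of 3.89 depends on the pseudocount. The file's Vpreb2 transcript was 429 bases long, the length of its coding sequence, while the Vpreb1 transcript was 768 bases, so fragments from untranslated parts of Vpreb2 were not counted for it. In pro-B cells Vpreb1 had 24.2 times the FPKM of Vpreb2. The authors divided reads that mapped to both among the copies by an estimate, so this ratio is uncertain.

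Vpreb3, which encodes a VpreB-like protein of the endoplasmic reticulum in B lineage cells, lies on another chromosome (chr10:75411057-75412391, plus strand). Its FPKM was 2.02 (0 to 5.25) in the pre-pro-B library against 877 (54.0 to 1803) in the pro-B library, a rise of 435-fold and a log2 change of 8.18. It was the highest member in pro-B cells, 19th of all genes. Together, Igll1, Vpreb1 and Vpreb2 summed to an FPKM of 1.53 in the pre-pro-B library against 1147 in the pro-B library. Within pro-B cells the Igll1 level was 2.29 times that of Vpreb1 and Vpreb2 together, and the Cuffdiff limits allowed any ratio between 0.0313 and 111.

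Cd79a and Cd79b encode the signalling pair, which sits in the receptor as a heterodimer. Cd79a lies at chr7:25682530-25687216 (plus strand). Its FPKM was 0.200 (0 to 0.715) in the pre-pro-B library against 135 (5.42 to 286) in the pro-B library, 673-fold higher, with a log2 change of 6.82. Cd79b lies at chr11:106172655-106175843 (minus strand). Its FPKM was 1.81 (0 to 5.41) in the pre-pro-B library against 181 (6.73 to 385) in the pro-B library, 99.5-fold higher, with a log2 change of 6.01 and limits of 0.27 and 8.59. The lower pro-B limit of Cd79b stood only just above the upper pre-pro-B limit, the narrowest gap among the 6 genes whose intervals did not overlap. In pro-B cells Cd79b had 1.34 times the FPKM of Cd79a, and in pre-pro-B cells 9.07 times, the latter from about 196 and 23.9 fragments. The limits of each ratio were too wide to tell the libraries apart.

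Blnk, the adaptor that SYK phosphorylates and that gathers BTK and phospholipase C gamma, lies at chr19:41003417-41069025 (minus strand). Its FPKM was 1.83 (0 to 6.29) in the pre-pro-B library against 147 (17.1 to 378) in the pro-B library, 80.5-fold higher, with a log2 change of 5.71 and limits of 1.31 and 8.57. Lcp2 encodes SLP-76, the adaptor in the corresponding place in T and myeloid cells, with 36.7% identical residues to BLNK over 401 aligned positions. Its FPKM was 3.06 in the pre-pro-B library against 0.384 in the pro-B library, so the ratio of Blnk to Lcp2 was 0.598 in the former and 383 in the latter. The limits allowed 0 to 76.2 for the pre-pro-B ratio and at least 11.2 for the pro-B ratio, which overlap.

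Syk was the only member already at a high level in pre-pro-B cells. It lies at chr13:52678806-52744161 (plus strand), with an FPKM summed over its 2 transcripts of 99.3 (0.521 to 245) in the pre-pro-B library against 74.2 (4.23 to 163) in the pro-B library. The log2 change was -0.42 and the limits allowed -5.56 to 6.75, so neither a rise nor a fall of Syk could be shown. In pre-pro-B cells Syk accounted for 93.1% of the summed FPKM of the 8 genes, and in pro-B cells for 2.90%. The sum itself was 107 in the pre-pro-B library against 2561 in the pro-B library.

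The transcripts of Syk differed in direction. NM_001198977 had an FPKM of 55.8 (0.463 to 131) in the pre-pro-B library against 68.0 (4.23 to 136) in the pro-B library, 1.22-fold higher. NM_011518 had 43.5 (0.0582 to 114) in the pre-pro-B library against 6.11 (0 to 26.3) in the pro-B library, a log2 ratio of -2.83. Its share of Syk FPKM was thus 43.8% in the pre-pro-B library against 8.24% in the pro-B library, with overlapping intervals for each transcript. In the file the transcripts were 5099 and 5103 bases long. In GENCODE, the longest Syk transcripts, of 5363 and 5122 bases, had the same coding sequence of 629 residues, and 96.0% of the read-length windows of the shorter one occurred in the longer one. In the other direction 91.6% occurred, so most reads could not tell that GENCODE pair apart. The pair was not matched to the RefSeq transcripts, and how many reads separate those was not measured. Zap70, which encodes the relative of SYK that T cells use, with 57.2% identical residues over 598 aligned positions, had an FPKM of 21.8 (1.32 to 56.9) in the pre-pro-B library against 32.9 (2.68 to 82.3) in the pro-B library. The ratio of Syk to Zap70 was 4.55 and 2.25, with limits that overlapped widely.

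**Figure D2:**
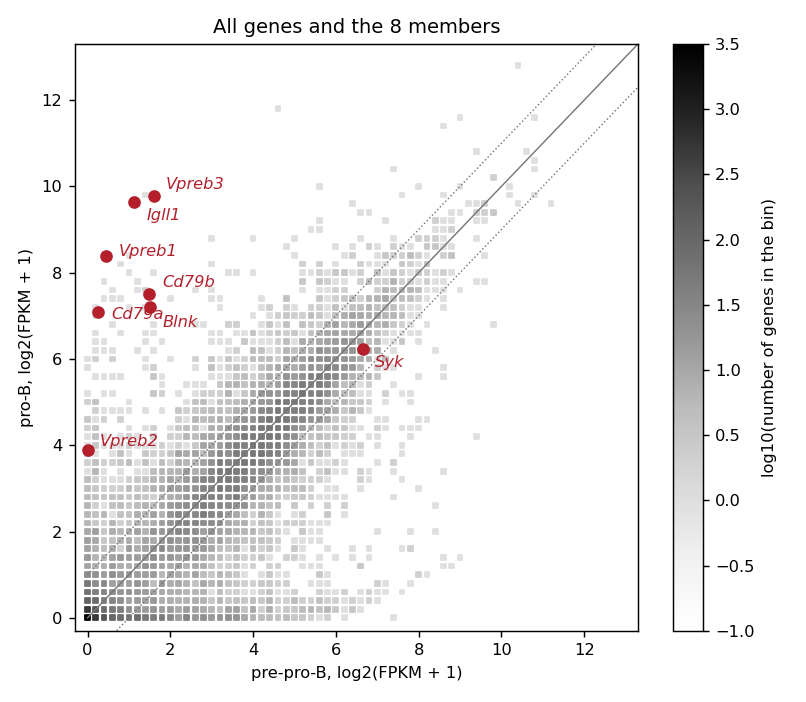
Levels of all 20657 genes in the pre-pro-B library (x) and the pro-B library (y), both as log2(FPKM + 1), with grey squares shaded by the number of genes in a bin and the 8 members in red. The solid line marks equal levels and the dotted lines a 2-fold difference. The 7 risen members lie far above the upper dotted line near the left edge, and Syk lies between the lines.

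Ordered by pro-B FPKM, the members ran Vpreb3, Igll1, Vpreb1, Cd79b, Blnk, Cd79a, Syk and Vpreb2. Of the 28 pairs of members, only Vpreb3 and Vpreb2 had pro-B intervals that did not overlap, so the order of all neighbours is not resolved. In pre-pro-B cells 1 pair of the 28, Syk and Vpreb2, lay apart. In the pre-pro-B library, 1 FPKM was reached by 5 of the 8 genes: Syk, Vpreb3, Blnk, Cd79b and Igll1. A bulk level of 1 to 2 FPKM does not tell a few cells with many transcripts from many cells with few.

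The genes whose pair of levels lay nearest to each member, among genes that reached 1 FPKM in either library, were in part other members. For Igll1 and for Vpreb3 the nearest gene was Pou2af1, the coactivator of Oct factors, at 1.63 FPKM in the pre-pro-B library against 860 in the pro-B library, and each was the second nearest to the other. The distances, on the log2 scale over the 2 libraries, were 0.29 to Igll1 and 0.20 to Vpreb3. Cd79b and Blnk lay 0.29 apart, with Cecr2 (1.57 and 192 FPKM) also among the nearest 2 of each. Vpreb1 was nearest to Trib2 (0.788 and 306) and Slamf6 (1.02 and 347). Vpreb2 was nearest to Zfp462 (0.0541 and 13.8) and Flot2 (0.0629 and 13.4), and Syk to Brk1 (98.6 and 74.1) and Atxn10 (97.4 and 75.2). Cd79a was nearest to Ralgps2 (0.300 and 166) and, at a distance of 0.17, to the Y-linked gene Eif2s3y, which had 0.176 FPKM in the female pre-pro-B library and 151 in the male pro-B library. A likeness over 2 libraries that also differ in sex and tissue is thus shared by genes outside the B lineage.

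Genes beside the members on the chromosome were read to see whether the rise extended past them. None of the members overlapped another protein-coding gene. Of the 14 nearest genes on either side that are not members, 11 stayed within 2-fold, 1 was higher in pro-B cells and 2 were lower. Vpreb1 lies between Igll1 and Top3b. Top3b, which encodes a topoisomerase and starts 1.64 kb away, had an FPKM of 26.6 (2.18 to 65.3) in the pre-pro-B library against 34.2 (1.24 to 84.9) in the pro-B library. Beside Cd79a, the ribosomal protein gene Rps19 had 58.6 and 92.6, and Arhgef1, only 0.788 kb away, had 11.7 and 12.4. The gene that rose was Chchd10, a mitochondrial protein gene 10.6 kb from Vpreb3, with an FPKM of 7.32 (0.167 to 14.5) in the pre-pro-B library against 456 (104 to 806) in the pro-B library and a log2 change of 5.78. Those that were lower were Dntt, which encodes the template-independent polymerase of heavy chain rearrangement and lies 34.7 kb from Blnk, at 17.0 and 0.683, and Diras2, 52.6 kb from Syk, at 11.2 and 0.453. The point values of Blnk and Dntt thus moved in opposite directions, but the Dntt intervals overlapped (0.797 to 37.0 and 0 to 2.03).

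**Figure D3:**
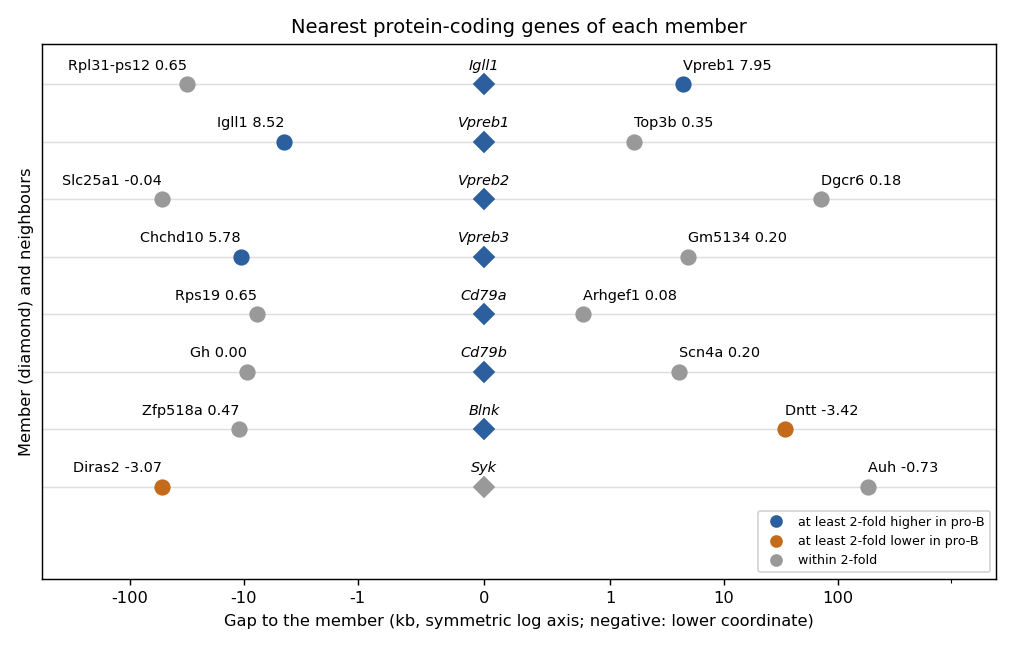
Gap in kb (symmetric log axis, negative toward lower coordinates) from each member (diamond) to its nearest protein-coding gene on either side, with the neighbour's change on the log2(FPKM + 1) scale written beside it. Blue marks a rise of 2-fold or more in the pro-B library, orange a fall of 2-fold or more and grey a change within 2-fold. Apart from the pair Igll1 and Vpreb1, the only blue neighbour is Chchd10 (5.78).

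The other genes of the pathway were taken from lists written with earlier results of these data known, and the members' rise was not shared by most of them. The largest rise and fall of a list are those on the log2(FPKM + 1) scale, where a low level counts for less than in a ratio of FPKM. Of 18 proximal kinases and adaptors, 1 was higher, 10 were lower and 7 were within 2-fold, with a median log2 change of -1.12. Intervals lay apart for 3 of the 10 that were lower and not for the 1 that was higher. The gene that rose was Blk, a Src family kinase of B cells, at 2.97 FPKM in the pre-pro-B library against 7.95 in the pro-B library. Lat2, a membrane adaptor of B, mast and myeloid cells, fell most, from 70.7 to 0.523, and its intervals overlapped. Clnk, an adaptor of the SLP-76 family to which Blnk and Lcp2 also belong, had 11.3 (0.275 to 37.5) in pre-pro-B cells and was listed at 0 in pro-B cells. Fyn had the highest pro-B level of the list, at 73.3 in the pre-pro-B library against 90.7 in the pro-B library.

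Of 20 coreceptor and downstream effector genes, 4 were higher, 8 were lower and 8 were within 2-fold, with a median of -0.63. Intervals lay apart for 2 of the 4 that were higher and 1 of the 8 that were lower. Among those that rose, Prkcb, a protein kinase C isoform of B cell receptor signalling, went from 2.91 (0.125 to 7.38) to 165 (4.56 to 432), with overlapping intervals. The complement receptor gene Cr2 rose from 0.182 (0 to 0.484) to 15.5 (3.23 to 27.6), and the exchange factor gene Vav2 from 6.91 to 17.2. The largest fall was that of Pik3r1, the regulatory subunit of PI3-kinase, from 193 to 15.1. Of 16 negative regulators, 3 were higher, 8 were lower and 5 were within 2-fold, with a median of -0.96. The 3 were the inhibitory B cell receptors Siglecg (1.37 and 73.4), Cd22 (0.545 and 25.8) and Cd72 (43.2 and 265). Of these, Cd22 alone had intervals apart, as did 2 of the 8 that were lower. On the log2(FPKM + 1) scale Dok2, an inhibitory adaptor, fell most, from 15.8 to 0.0998. As a ratio of FPKM it was 158-fold lower and Lair1 was 231-fold lower, while Pirb went from 3.93 to a value listed at 0.

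The transcription factors of B lineage genes were the only list of the 5 with a positive median: 9 of 14 were higher, 3 were lower and 2 were within 2-fold, with a median log2 change of 2.37. Intervals lay apart for 4 of the 9 that were higher and for none of the 3 that were lower. Pou2af1 rose most and had the highest pro-B level, at a log2 change of 8.36. Pax5, the B lineage commitment factor, rose from 1.13 (0 to 3.47) to 239 (15.5 to 495). Ebf1, counted among the 9, is the gene targeted in the pre-pro-B library. It was at 64.0 (2.78 to 149) and 273 (8.50 to 729). Lef1, Ikzf3, Irf4, Foxo1, Spib and Tcf3 were the other factors that rose. Spi1, which encodes PU.1, fell most, from 19.1 to 3.34, and Runx1 and Irf8 were also lower.

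The ITAM chains of other receptors went the opposite way from Cd79a and Cd79b. Of 6, none was higher, 4 were lower and 2 were within 2-fold, with a median of -3.32. Tyrobp had an FPKM of 463 (14.1 to 936) in the pre-pro-B library against 1.28 (0 to 4.47) in the pro-B library, 362-fold lower. Fcer1g had 395 (93.4 to 695) and 1.46 (0 to 3.66), 270-fold lower. Cd3g, a chain of the T cell receptor complex, had 36.8 (1.62 to 94.7) and 0.0351 (0 to 0.154). The intervals of these 3 genes did not overlap between the libraries. Cd247 was lower too, at 8.83 and 2.60, with overlapping intervals, and its 2.60 was the highest pro-B level of the list. Cd3d and Cd3e stayed below an FPKM of 1 in both libraries. Of the 8 ITAM chains, Tyrobp and Fcer1g thus had the highest levels in the pre-pro-B library, and Cd79b and Cd79a in the pro-B library, while Syk was within 2-fold.

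**Figure D4:**
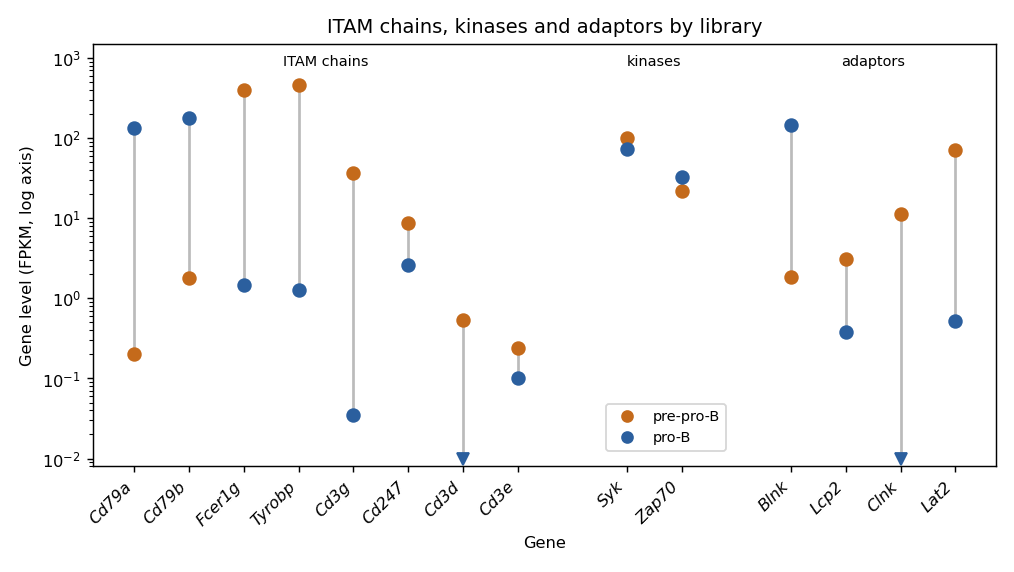
FPKM (log axis) of the ITAM chains, of the kinase genes Syk and Zap70 and of the adaptor genes Blnk, Lcp2, Clnk and Lat2 in the pre-pro-B library (orange) and the pro-B library (blue), without error bars. Triangles at the lower edge mark a value listed at 0. Cd79a, Cd79b and Blnk have the blue point above the orange one, while Fcer1g, Tyrobp, Cd3g, Clnk and Lat2 have it far below.

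**Figure D5:**
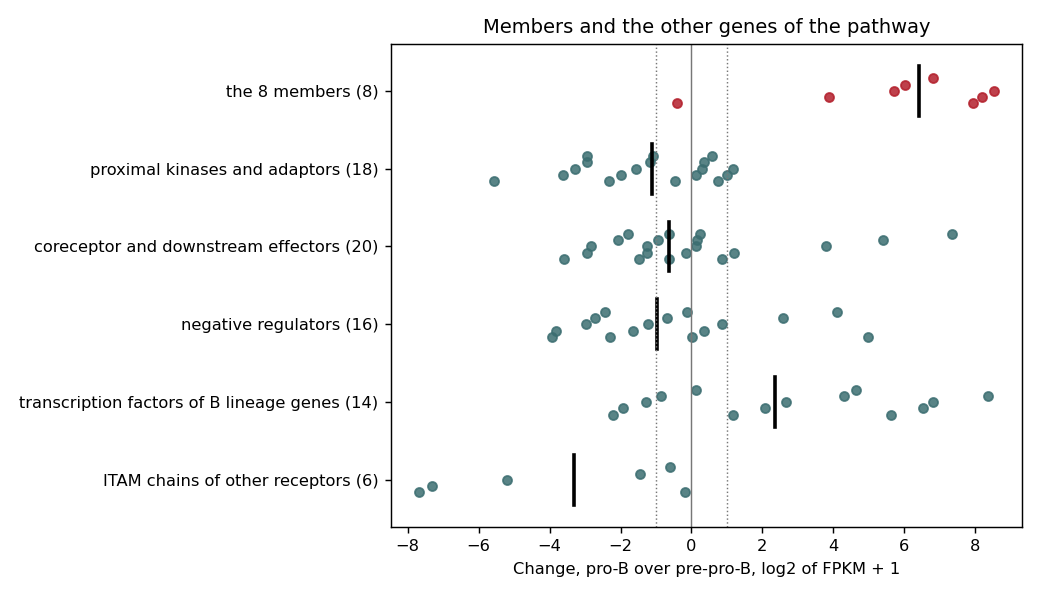
Change from pre-pro-B to pro-B cells on the log2(FPKM + 1) scale for the 8 members (red) and the genes of 5 pathway lists (green), 1 point a gene, with the list's median as a black bar and a 2-fold change as dotted lines. The members' median is 6.42, that of the transcription factors 2.37, and those of the other 4 lists lie between -0.63 and -3.32.

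Markers of other cells moved with the same contrast. The 6 plasmacytoid dendritic markers summed to an FPKM of 435 in the pre-pro-B library against 81.6 in the pro-B library, with 5 lower and 1 higher. The 10 myeloid markers summed to 280 and 9.40, with 4 lower. Of these, Fcgr3 was at 218 and 2.88, Mpo at 35.7 and 0.122, Itgam at 19.7 and 6.40, and Lyz2 at 5.39 and listed at 0, while Elane and Ctsg were listed at 0 in both libraries. The 10 T and NK markers summed to 93.5 and 3.55, with 6 lower, and the 7 measured erythroid, mast and basophil markers to 10.8 and 0.0802, with 1 lower. The 10 stromal markers summed to 20.0 and 14.7, with 1 lower and 3 higher, and Dcn and Postn were listed at 0 in both. The lower one was Pdgfrb, at 15.9 and 0.377, and the other 9 summed to 4.08 and 14.3, with Col1a2, Col6a1 and Cxcl12 higher. Their part in the changes of the ITAM chains and of the members was not tested. Of the 11 early B lineage and lymphoid progenitor markers, 4 were higher in pro-B cells, among them Pax5, Cd24a and Rag1. The 5 that were lower were Flt3, Kit, Cd34, Dntt and Ptprc. Ptprc, which encodes the pan-leukocyte antigen CD45, was at 269 (0.671 to 729) in the pre-pro-B library and only 0.917 (0 to 2.82) in the library labelled pro-B, with overlapping intervals, and the deposited values do not show why. Of the 5 later B cell markers, Cr2 and Cd22 were higher, and Ms4a1 was listed at 0 in both libraries.

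The genes targeted in these mice did not fall to 0. Ebf1 was at 64.0 in the Ebf1 -/- library, and Rag2 was at 22.9 (1.75 to 44.3) in the Rag2 -/- library against 34.5 (2.88 to 66.7) in the other. An FPKM over a whole transcript does not show which exons are missing, so these values check the genotypes only weakly.

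The promoters also differed in base composition. The upstream Syk window had 71.6% G and C and 27 CpG dinucleotides, and the downstream one 47.6% and 2. The windows of the 6 other members with a promoter had 47.6% to 58.8% G and C and 0 to 6 CpG, beside medians of 52.4% and 6 over all promoters. The downstream Syk window thus lay within the range of the other members and the upstream one outside it, with no test made.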

How the data were processed

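The authors made the deposited FPKM by aligning trimmed reads to mm9 with TopHat (its version differs between the sources used here) and estimating RefSeq transcripts with Cuffdiff 2.1.1, with multi-read and fragment bias correction, a minimum of 10 alignments and a blind dispersion over the 2 libraries. Each FPKM has 95% limits from that model. A further deposited table holds the authors' fold changes, p-values and q-values and was not used, nor were 2 status columns.

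Of 26580 protein-coding accessions, 26173 matched a gene name in a RefSeq table of GRCm38.p6, and the rest were kept under their accession. FPKM and limits were summed per gene, with no filter on low values. Changes were log2((pro-B + 1)/(pre-pro-B + 1)), called at 2-fold. Fragments were approximated from FPKM, length and 90 M reads, with 3 fragments as the floor, and cover counting error only. The call was tested on simulated data only. The error rate of the call in these libraries, which have no replicates, was not tested. Every member was described. From each list the largest rise, the largest fall and the highest pro-B level were named, with Lcp2, Zap70, the 2 nearest patterns and the nearest genes, and other genes were named after their values were seen. An item of these lists is not reported here. The members and lists were chosen with earlier results of these data known. Python 3.11.15, numpy 2.4.6, pandas 2.3.3, Biopython 1.88 and matplotlib 3.10.9 were used.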

Additional observations from a re-analysis of the deposited data

How the results depend on the processing

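Each change was recomputed with a pseudocount of 0.1 or none, on the TPM scale, with median-ratio scaling, from the most abundant transcript alone and without repeated rows. Of 114 recomputed values, 105 kept their direction and stayed within the Cuffdiff limits, or within 1.5 times a count. Some of the 105 could not differ from the main values, so their share is not a measure of stability. Every member but Syk has 1 transcript, and no member has repeated rows. Limiting a count to genes that reached 1 FPKM cannot change a 2-fold call on the log2(FPKM + 1) scale. The members counted as higher numbered 7 under every alternative but that without a pseudocount, where Vpreb2 had no value and 6 remained. Without a pseudocount Vpreb1 rose by 9.86 and Cd79a by 9.40. With a pseudocount of 0.1 Vpreb2 rose by 7.12 and Cd79a by 8.81, and on the TPM scale Vpreb2 rose by 5.28. Syk turned from -0.42 to 0.28 when the most abundant transcript stood for the gene, because NM_011518 is then left out. Of the proximal kinases and adaptors 2 were higher, in place of 1, with a pseudocount of 0.1, without one and with median-ratio scaling. Before the pseudocount is added, TPM shifted the log2 ratio between the libraries by -0.09 and median-ratio scaling by 0.09. Since TPM values are larger than FPKM, the pseudocount of 1 weighs less on that scale. No paired analysis was possible because each cell type had 1 library, and no replicate could be left out. Values under about 0.1 FPKM rest on a few fragments in short transcripts.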
